A study of Mus musculus with 12 samples.

Results

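Layer 2 projection neurons of the mouse cerebral cortex were compared between postnatal day 7 (P7) and postnatal day 3 (P3). The comparison used 3 P7 and 3 P3 layer 2 libraries out of 12 RNA libraries, and the other 6 libraries came from layer 3 neurons of the same ages. A gene entered the comparison when it reached at least 1 TPM in at least 3 of the 6 layer 2 libraries. TPM is a transcript level corrected for gene length and scaled so that each library sums to 1000000. This left 16501 of the 56734 genes in the deposited table, of which 27986 were above 0 in any layer 2 library. All groups were wild type, with genotype label wt, and their labels differ in age and layer alone. Neurons carried the red fluorescent protein mCherry, brought into the embryonic cortex by a timed in utero electroporation, and were purified by fluorescence-activated cell sorting. A library held the sorted cells of 2 to 3 pups, so differences between single pups were averaged before sequencing. The promoter that drove mCherry and the sex of the pups are not given in the sources used here.

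A cortical neuron that has reached its layer passes through a postnatal period in which the axon and dendrites grow out and synapses form. In this period the genes of the migrating and differentiating neuron are known to be turned down while those of synaptic transmission and of mature excitability are turned up. Upper-layer neurons, which mainly project within the cortex and across the corpus callosum, are among the last cortical neurons to be born and to mature.

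The layer 2 libraries carried the transcripts of upper-layer excitatory neurons at both ages. Cux1, a homeobox factor of upper layers, measured 116, 105 and 123 TPM at P7, against 122, 118 and 112 TPM at P3. Its relative Cux2 measured 30.1, 23 and 25.5 TPM at P7, against 30.8, 19 and 22.7 TPM at P3. Both genes overlapped between the ages. Of 24 upper-layer genes, 8 rose and 4 fell, with a median log2 fold change of 0.14, and only 2 fell without P7 replicate 3 or P3 replicate 1. The rises included Cntn6, an adhesion molecule (log2 fold change 2.0 ± 0.29), Kitl, the ligand of the Kit receptor (1.91 ± 0.19), and Plxnd1, a semaphorin receptor (1.68 ± 0.19). The POU factor Pou3f3 fell (log2 fold change -0.60 ± 0.13, adjusted p = 0.00537). Here and below, a fold change is P7 over P3 on the log2(TPM + 1) scale with its standard error, and rose, fell or called means an adjusted p under 0.05 in limma over all 16501 genes. Over all these genes 16.1% rose and 10.1% fell.

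Transcripts of other layers and cell types were also present. The layer 5 factor Fezf2 measured 6.85, 7.8 and 4.65 TPM at P7, against 11, 13.1 and 8.3 TPM at P3, and the layer 4 factor Rorb 6.51, 5.31 and 7.01 TPM at P7, against 9.91, 5.96 and 6.33 TPM at P3. None of 19 deep-layer genes rose and 2 fell, Rprm (-1.51 ± 0.22) and Bcl11b (-1.2 ± 0.35), with a median of -0.54. The call of Bcl11b ended without P7 replicate 2 or 3 or P3 replicate 2 or 3, and 4 deep-layer genes fell after median-ratio scaling. Of 12 layer 4 genes 4 rose and none fell. Among these was Cartpt, a neuropeptide precursor, which measured 16.5, 10.1 and 17.1 TPM at P7, against 0.551, 0.311 and 2.11 TPM at P3.

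Marker sums of other cell types differed between libraries of the same age. For scale, the 24 upper-layer genes summed to 5452.5, 5938 and 5584 TPM at P7, against 5930, 5485 and 5473 TPM at P3. The mean log2(TPM + 1) of the microglia markers was 5.48 to 6.85 at P7 and 6.565 to 7.68 at P3. That of the upper-layer genes was 5.88 to 6.03 at P7 and 5.45 to 5.75 at P3. The 15 microglia markers summed to 921, 2426 and 1826 TPM at P7, against 2188, 4943 and 2614 TPM at P3. The 15 astrocyte markers summed to 559, 1682 and 825 TPM at P7, against 864, 911 and 804 TPM at P3, and the 15 oligodendrocyte lineage markers to 313, 884 and 440.1 TPM at P7, against 574, 599 and 643 TPM at P3. P3 replicate 2 thus had the highest microglia sum and P7 replicate 2 the highest astrocyte and oligodendrocyte sums, and the ages overlapped in all 3. The 7 erythroid genes summed to 207, 227 and 257 TPM at P7, against 164, 909.7 and 177 TPM at P3, with P3 replicate 2 again highest. The 15 vascular markers summed to 30.2, 32.7 and 35.5 TPM at P7, against 28.6, 58.2 and 41.2 TPM at P3, and the 18 interneuron markers to 176, 242 and 157 TPM at P7, against 329, 388 and 285 TPM at P3. Of these sums, the interneuron sum alone was lower in every P7 library than in every P3 library. Much of that difference lay in 1 gene, Npy, given below, and 13 of the 15 tested interneuron markers were not called. No marker on the lists of microglia, astrocytes, oligodendrocytes, vessels or interneurons was at 0 in all 3 libraries of an age. Mobp, an oligodendrocyte gene outside these lists, was at 0 in all 3 P3 libraries. In bulk libraries, fewer cells of a type and less RNA per cell cannot be told apart.

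Transcripts of the Y chromosome were not balanced between the ages. Eif2s3y measured 28.4, 15.2 and 73.5 TPM at P7, against 0, 0 and 8.35 TPM at P3, and Ddx3y 11.8, 6.08 and 19.3 TPM at P7, against 0, 0 and 1.2 TPM at P3. Xist, which is expressed from the inactive X chromosome, measured 12.1, 12.2 and 6.67 TPM at P7, against 25, 21.1 and 35.9 TPM at P3. All P7 libraries carried Y transcripts, whereas P3 replicates 1 and 2 were listed at 0 for both genes. Pup sex and age can therefore not be told apart for sex-linked genes in layer 2. Of 3 tested sex-linked genes 2 rose, and the part of pup sex in the other results was not tested.

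Between P7 and P3, 4324 of the 16501 genes differed in layer 2 (26.2% of those tested). Of these, 2657 were higher at P7 and 1667 were lower, and the median over all genes was 0.03, or -0.02 after either other scaling. A log2 fold change of at least 1 was reached by 1207 genes that rose, and one of at most -1 by 713 that fell. Of the genes that rose, 2636 had no overlap between the 3 P7 and the 3 P3 libraries, and of those that fell, 1636, where 48.4% of all genes had none. The genes that rose held 26.6% to 29.3% of all TPM at P7, against 13.5% to 16.6% at P3. The genes that fell held 13.7% to 14.9% at P7, against 23.1% to 27.1% at P3. Both the lack of overlap and these TPM shares follow in part from the calls, which were made from the same libraries. Libraries of 1 age correlated at 0.967 to 0.982 across genes, and libraries of different ages at 0.892 to 0.949. The first principal component of the 6 libraries separated the ages and held 64.7% of the variance. Without P3 replicate 2, which lay farthest out on it, 2868 genes were called, 1873 of them higher.

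**Figure D1:**
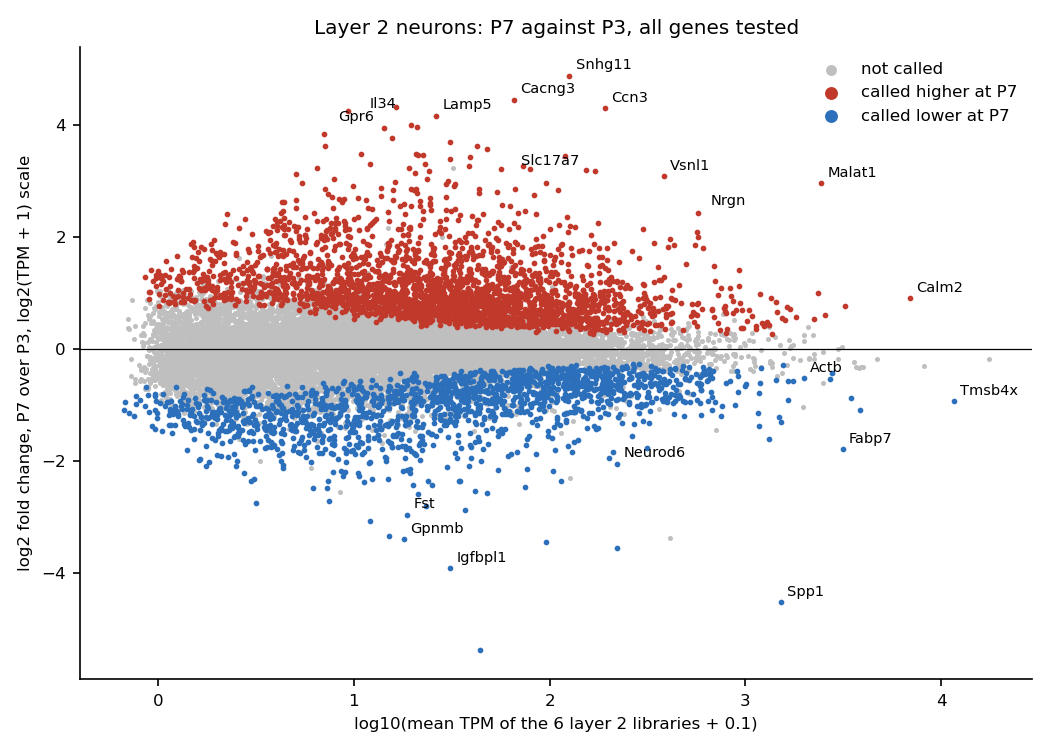
Each point is a gene tested in layer 2: the x axis is the log10 of its mean TPM over the 6 layer 2 libraries plus 0.1, and the y axis its log2 fold change, P7 over P3. Red points were called higher at P7 and blue points lower, and the 2657 red and 1667 blue points reach over the whole range of levels, with Snhg11 at the top and Calm2 and Tmsb4x among the most abundant.

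The largest rises were in transcripts that were low at P3. Snhg11, a long noncoding RNA of neurons, measured 229, 193 and 312 TPM at P7, against 5.71, 9.69 and 6.69 TPM at P3 (log2 fold change 4.88 ± 0.49, adjusted p = 1.53e-05). Cacng3, an auxiliary subunit of AMPA receptors, measured 142, 114 and 124 TPM at P7, against 5.6, 3.19 and 6.14 TPM at P3 (log2 fold change 4.45 ± 0.33, adjusted p = 1.41e-06). Ccn3, a secreted matrix-associated protein, measured 375, 391 and 329 TPM at P7, against 18.3, 13.6 and 21.6 TPM at P3 (log2 fold change 4.3 ± 0.25, adjusted p = 2.45e-07). In all 3 genes every P7 library was above every P3 library. The lysosome-related membrane protein Lamp5 (4.16), the cytokine Il34, a ligand of the Csf1 receptor (4.0), and the oxytocin receptor Oxtr (3.62) followed, together with the orphan receptors Gpr6 (3.95) and Gpr22 (3.76). Il34 measured 42.9, 20.7 and 49.7 TPM at P7, against 1.14, 0.611 and 2.39 TPM at P3, and Oxtr 17.6, 11.7 and 12.4 TPM at P7, against 0.156, 0 and 0.465 TPM at P3. Mobp, a myelin protein of oligodendrocytes, measured 10.9, 20.6 and 10.3 TPM at P7 and was listed at 0 in all 3 P3 libraries, so that no fold is given. P7 replicate 2, the library with the highest oligodendrocyte sum, also had the most Mobp.

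Among the most abundant genes, calmodulin transcripts rose and those of actin binding and ferritin fell. Calm2, one of the genes of the calcium sensor calmodulin, measured 9335, 8236 and 9339 TPM at P7, against 5078, 4297 and 5089.7 TPM at P3 (log2 fold change 0.90 ± 0.13, adjusted p = 0.000244). Tmsb4x, a thymosin that sequesters actin monomers, measured 7075, 8559 and 8126 TPM at P7, against 12913, 18390.4 and 14380.3 TPM at P3 (log2 fold change -0.93 ± 0.16, adjusted p = 0.000764). Neither gene overlapped between the ages, and the call of Tmsb4x was lost after quantile normalization (log2 fold change -0.62, adjusted p = 0.0566 by limma). Within each age, Tmsb4x ranked the libraries in the same order as the microglia marker sum. Ftl1, the ferritin light chain, fell (log2 fold change -1.09 ± 0.17, adjusted p = 0.000373). So did Ptma, a nuclear protein of dividing and young cells (log2 fold change -1.3 ± 0.10, adjusted p = 1.9e-06), and Actb, cytoplasmic actin (log2 fold change -0.52 ± 0.11, adjusted p = 0.00338). The part of microglial RNA in the falls of Tmsb4x and Ftl1 was not tested. Malat1, a nuclear noncoding RNA, measured 5465, 5063 and 2511 TPM at P7, against 436, 673 and 496 TPM at P3 and rose (log2 fold change 2.96 ± 0.55, adjusted p = 0.00156). Gap43, the growth-associated protein of axons (0.61 ± 0.12), the tubulin Tubb2a (0.77 ± 0.14), the ubiquitin ligase adaptor Ndfip1 (1.0 ± 0.10) and the adaptor protein Ywhaz (0.72 ± 0.15) also rose. The rises of Rtn1 (0.53 ± 0.15) and Stmn3 (0.57 ± 0.17) lost their calls without P7 replicate 1 or 3 or P3 replicate 2, and after median-ratio scaling.

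Genes of transmitter release were higher at P7 as a group. Of 47 presynaptic genes, 36 rose and none fell, and their median was 1.17 against 0.03 over all genes. Slc17a7, which loads glutamate into synaptic vesicles, measured 199.5, 129 and 184 TPM at P7, against 24.1, 18.8 and 19.96 TPM at P3 (log2 fold change 2.95 ± 0.17, adjusted p = 1.91e-07). Syt1, the calcium sensor of fast release, measured 282, 274 and 313 TPM at P7, against 76.3, 43.5 and 64.6 TPM at P3 (log2 fold change 2.25 ± 0.20, adjusted p = 5.43e-06). Slc30a3, the vesicular zinc transporter of glutamatergic terminals, measured 47, 19.3 and 45.8 TPM at P7, against 4.73, 1.27 and 4.08 TPM at P3 (log2 fold change 3.14 ± 0.36, adjusted p = 4.32e-05). All P7 libraries lay above all P3 libraries in these 3 genes, and P7 replicate 2 was the lowest of the P7 libraries in each. Sv2b, a vesicle glycoprotein (2.9 ± 0.29), Syn2, a synapsin that tethers vesicles (2.27 ± 0.17), and Snap25, a SNARE of the plasma membrane (2.0 ± 0.16), rose likewise. Among the 11 members not called, Syt4, an unconventional synaptotagmin, measured 344, 296 and 329 TPM at P7, against 403, 234 and 369 TPM at P3, with overlapping ages.

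The wider set of pan-neuronal genes moved less. Of 20 genes 14 rose and 1 fell, with a median of 0.56, and the count of rises was 9 without P7 replicate 1, P7 replicate 3 or P3 replicate 2, and 9 after median-ratio scaling. Eno2, the neuronal enolase, rose (log2 fold change 1.74 ± 0.18, adjusted p = 2.07e-05), while Elavl2, an RNA-binding protein of young neurons, fell (log2 fold change -1.18 ± 0.30, adjusted p = 0.0114). The neuronal tubulin Tubb3 had a log2 fold change of 0.05 ± 0.13 and the dendritic protein Map2 one of -0.46 ± 0.24, both not called.

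On the postsynaptic side, 25 of 35 genes of the postsynaptic density rose and 1 fell (median 0.91). Camk2a, the alpha subunit of CaM kinase II that is central to synaptic plasticity, measured 56.6, 49.5 and 53.4 TPM at P7, against 5.46, 6.17 and 6.48 TPM at P3 (log2 fold change 2.95 ± 0.15, adjusted p = 1.36e-07). Nrgn, neurogranin, which binds calmodulin at low calcium, measured 1009, 897 and 976 TPM at P7, against 242, 127 and 186 TPM at P3 (log2 fold change 2.42 ± 0.21, adjusted p = 6.35e-06). Both genes were apart between the ages, with P3 replicate 2 lowest for Nrgn. Synpo, a protein of the spine apparatus (2.51 ± 0.26), and Dlg3, the scaffold SAP102 (1.64 ± 0.20), also rose. Homer3, a scaffold of metabotropic receptors, was the member that fell, at 4.05, 8.62 and 5.68 TPM at P7, against 18.8, 18.5 and 14.3 TPM at P3 (log2 fold change -1.39 ± 0.31, adjusted p = 0.00504).

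Of 22 AMPA receptor and auxiliary genes 11 rose and 1 fell (median 0.58). Gria1 measured 58.2, 42.9 and 53.6 TPM at P7, against 16.7, 15.2 and 17 TPM at P3 (log2 fold change 1.59 ± 0.20, adjusted p = 8.92e-05) and Gria3 rose as well (1.61 ± 0.24), while Gria2, the subunit that sets calcium permeability, had a log2 fold change of 0.56 ± 0.25 and was not called. Nptxr, a pentraxin receptor that clusters AMPA receptors, rose by 1.58 ± 0.15 on the log2 scale. The fall of Cacng4 (-0.46 ± 0.14) was lost without P7 replicate 1 or 3 or P3 replicate 1 or 3. Of 20 NMDA, kainate and metabotropic receptor genes 8 rose and 1 fell (median 0.77). Grin1, the obligatory NMDA receptor subunit, measured 109, 90.6 and 102 TPM at P7, against 32.8, 22.8 and 31.2 TPM at P3 (log2 fold change 1.77 ± 0.15, adjusted p = 5.24e-06), and Grm7, a presynaptic metabotropic receptor, 64.4, 45.4 and 67.5 TPM at P7, against 20.8, 10.2 and 12.3 TPM at P3 (log2 fold change 2.0 ± 0.26, adjusted p = 0.000126). The ages did not overlap in either. Grin2a, the subunit known to join NMDA receptors as they mature, rose too (1.43 ± 0.25), with 5.45, 4.78 and 6.34 TPM at P7, against 1.93, 0.929 and 1.47 TPM at P3, and Grin2b had 0.76 ± 0.33 and was not called. The fall of Grm2 (-0.65 ± 0.21) was lost without any of P7 replicates 1, 2 or 3 or P3 replicates 1 or 2, and with the replicate block.

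Synaptic adhesion molecules rose broadly, with 30 of 50 higher at P7 and none lower (median 0.78). Lrrtm4, a postsynaptic leucine-rich repeat protein that induces excitatory synapses, measured 85.8, 83 and 97.3 TPM at P7, against 6.11, 5.95 and 7.65 TPM at P3 (log2 fold change 3.57 ± 0.28, adjusted p = 2.23e-06). Its relative Lrrtm3 (2.61 ± 0.19), Slitrk3, an organizer of inhibitory synapses (2.31 ± 0.27), Lgi1, a secreted synaptic protein linked to epilepsy (2.27 ± 0.28), and the calsyntenin Clstn3 (1.87 ± 0.16) followed. For Lrrtm4 the lowest P7 library was far above the highest P3 library.

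Genes of inhibition received by the neuron rose as well. Of 20 GABA receptor and chloride transporter genes, 14 rose and 1 fell, with a median of 1.28. Slc12a5 encodes KCC2, which extrudes chloride and is known to make GABA inhibitory as neurons mature. It measured 59.8, 47.3 and 62.6 TPM at P7, against 8.8, 8.37 and 10.5 TPM at P3 (log2 fold change 2.49 ± 0.17, adjusted p = 6.36e-07). Slc12a2 encodes NKCC1, the chloride importer of young neurons, and measured 10.4, 12.6 and 8.36 TPM at P7, against 16.5, 11.5 and 18.4 TPM at P3, with overlapping ages and no call (-0.52 ± 0.27). Gabra3, an alpha subunit of GABA-A receptors, measured 69.996, 64.9 and 78.3 TPM at P7, against 14.4, 10.3 and 16.6 TPM at P3 (log2 fold change 2.31 ± 0.20, adjusted p = 4.79e-06), with the ages apart. Gabra4 (1.81 ± 0.23) and Gabrd, a subunit of extrasynaptic receptors (2.11 ± 0.35), rose too, whereas Gabra2, common in young neurons, had 0.37 ± 0.26 and was not called. The glycine receptor subunit Glra2 fell (log2 fold change -1.19 ± 0.31, adjusted p = 0.0118), a call that was lost without P7 replicate 2.

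Ion channel genes made up a large block of the rises. Of 57 potassium and HCN channel genes 41 rose and 1 fell (median 1.12). Kcnj9, the G-protein gated channel GIRK3, measured 38.7, 31.8 and 34.1 TPM at P7, against 3.25, 1.31 and 4.6 TPM at P3 (log2 fold change 3.23 ± 0.30, adjusted p = 9.55e-06). Kcnip2, which binds Kv4 channels of the A-type current, measured 109.7, 87.1 and 97.4 TPM at P7, against 20.8, 12.2 and 14.9 TPM at P3 (log2 fold change 2.57 ± 0.18, adjusted p = 9.43e-07). Kcnj4, an inward rectifier, measured 33.7, 32 and 35.6 TPM at P7, against 5.4, 5.04 and 4.48 TPM at P3 (log2 fold change 2.54 ± 0.22, adjusted p = 5.02e-06). In each of these the P7 libraries lay above all P3 libraries. The modulatory subunit Kcnf1 (2.71 ± 0.23) and the sodium-activated channel Kcnt1 (2.33 ± 0.23) rose as well. The fall of Kcnd3 (-0.85 ± 0.27) was lost without P7 replicate 3 or any P3 library.

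Of 34 genes on the sodium and calcium channel list, which also holds calcium pumps such as Atp2b2, 22 rose and none fell (median 0.91). Scn2a, the main sodium channel of the young axon, measured 69, 56.7 and 68 TPM at P7, against 27.6, 16.2 and 31.9 TPM at P3 (log2 fold change 1.37 ± 0.21, adjusted p = 0.000398). P3 replicate 2 was the lowest of the 6 libraries, and the ages were apart. Atp2b2, a calcium pump of the plasma membrane (1.82 ± 0.15), and Cacna2d1, a calcium channel subunit and thrombospondin receptor (1.64 ± 0.18), were among the largest rises. Scn8a, the sodium channel of the mature axon initial segment, rose by 1.04 ± 0.25 on the log2 scale.

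**Figure D2:**
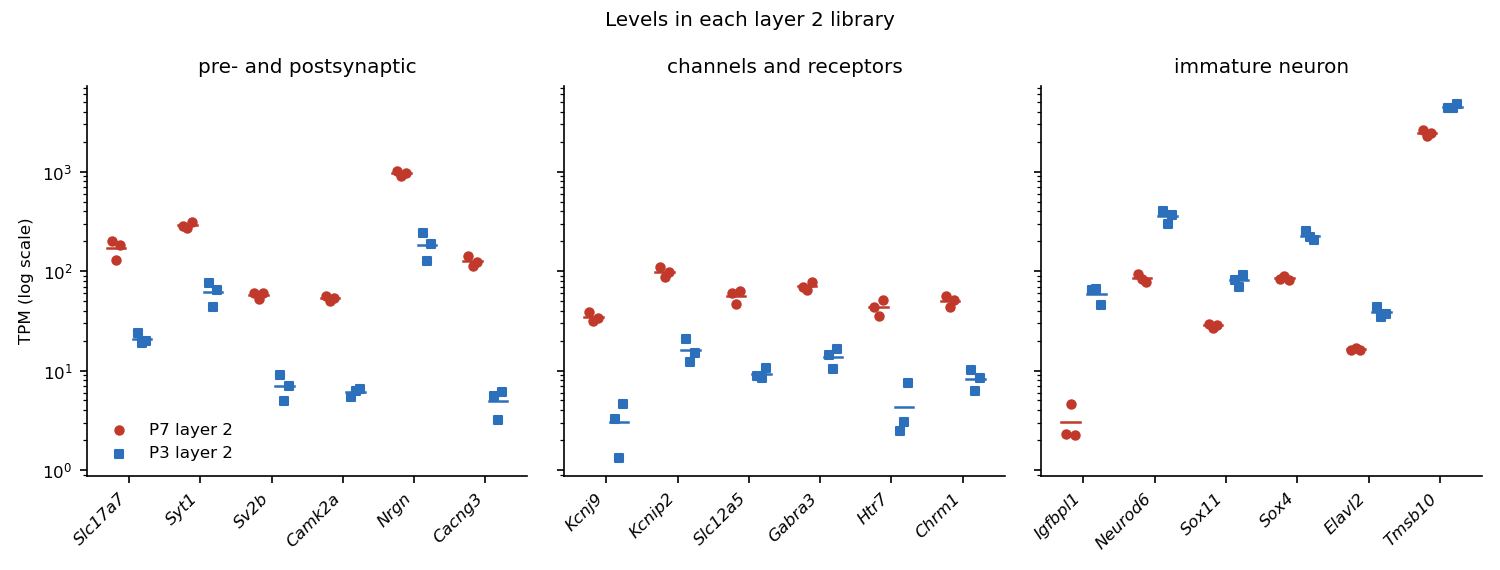
TPM on a log axis for 18 genes in each layer 2 library, in 3 panels by role; red circles are P7 libraries, blue squares P3 libraries, and lines are group means. The synaptic, channel and receptor genes lie higher at P7 and the immature neuron genes lower, with no overlap between the ages, as for Camk2a and Igfbpl1.

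Calcium signalling and neuromodulation followed the same direction. Of 29 calcium-binding and calcium signalling genes 20 rose and none fell (median 0.93). Vsnl1, visinin-like protein 1, a neuronal calcium sensor, measured 731, 615 and 706 TPM at P7, against 92.3, 62 and 88.5 TPM at P3 (log2 fold change 3.08 ± 0.15, adjusted p = 1.36e-07). Calb1, the calcium buffer calbindin, measured 41.5, 32.8 and 39.6 TPM at P7, against 5.19, 5.35 and 5.23 TPM at P3 (log2 fold change 2.63 ± 0.35, adjusted p = 0.000136). All P7 libraries were above all P3 libraries in both. Of 49 G-protein signalling regulators 29 rose and 2 fell (median 0.90), led by Rgs4, which speeds the shutdown of G-protein signals (3.44 ± 0.21), the gamma subunits Gng4 (3.26 ± 0.17) and Gng13 (2.86 ± 0.32), and the phosphodiesterase Pde1a (2.46 ± 0.24). Both falls, Rgs10 (-1.12 ± 0.33) and Gnai2 (-0.55 ± 0.17), were lost without P7 replicate 1, P7 replicate 3 or P3 replicate 2. The part of other cell types in these falls was not tested.

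Receptors for neuromodulators rose in 19 of 33 cases, and none fell (median 0.97). Htr7, a serotonin receptor, measured 44.1, 35.8 and 51.4 TPM at P7, against 2.49, 3.04 and 7.46 TPM at P3 (log2 fold change 3.17 ± 0.41, adjusted p = 0.000113). The muscarinic acetylcholine receptors Chrm1 (2.48 ± 0.17) and Chrm3 (2.34 ± 0.29) rose as well. Every P7 value of these 3 genes exceeded every P3 value. Without P3 replicate 2, and after either other scaling, 1 receptor gene fell.

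Of 25 neuropeptide and granin genes 9 rose and 1 fell (median 0.61). Pcsk1, a convertase that cuts prohormones in secretory granules, measured 10.3, 8.79 and 8.77 TPM at P7, against 0.978, 0.247 and 0.738 TPM at P3 (log2 fold change 2.66 ± 0.25, adjusted p = 1.01e-05), and its relative Pcsk2 rose too (2.07 ± 0.22). Cck, cholecystokinin, measured 286, 166 and 283 TPM at P7, against 71, 50.004 and 98.6 TPM at P3 (log2 fold change 1.74 ± 0.33, adjusted p = 0.0019). The peptides Pdyn (2.02 ± 0.31) and Adcyap1 (1.89 ± 0.29) also rose. Npy, neuropeptide Y, was the 1 member that fell, or 1 of 2 without P7 replicate 1, at 28.2, 29.4 and 24.2 TPM at P7, against 156, 112 and 108 TPM at P3 (log2 fold change -2.14 ± 0.39, adjusted p = 0.00138). Npy is also a marker of interneurons, and of 15 tested interneuron markers none rose and 2 fell, Npy and Dlx5 (-0.99 ± 0.34). The call of Dlx5 ended without P7 replicate 1 or 3 or P3 replicate 1 or 2, and 5 interneuron markers fell without P3 replicate 3. Gad1, which makes GABA, measured 9.67, 13.8 and 4.5 TPM at P7, against 5.2, 13 and 8.14 TPM at P3, with overlap.

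The promoters of Gpr6, Pcsk1 and Cartpt are shown because these genes were among the largest rises in their groups and each holds a cyclic AMP response element, a site bound by CREB family factors. The sequences are 60 bases of the RefSeq promoter windows on GRCm38.p6, 5′ to 3′ on the strand of the gene, with the motif TGACGTCA in capitals.
Gpr6, chr10:41072335-41072394, minus strand: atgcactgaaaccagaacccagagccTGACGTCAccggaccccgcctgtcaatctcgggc
Pcsk1, chr13:75089753-75089812, plus strand: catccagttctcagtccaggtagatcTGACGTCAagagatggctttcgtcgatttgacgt
Cartpt, chr13:99900762-99900821, minus strand: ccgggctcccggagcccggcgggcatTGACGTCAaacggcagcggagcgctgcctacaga
The motif begins 78 bases before the annotated start of Gpr6 and of Pcsk1 and 112 bases before that of Cartpt. Gpr6 measured 32.2, 26.4 and 23.7 TPM at P7, against 0.715, 0.758 and 1.03 TPM at P3. The motif, which reads the same on both strands, was in 3.47% of the promoters of genes that rose, 2.42% of those of genes that fell, 2.9% of those of all tested genes and 1.79% of all promoters in the table. Promoters could be matched by symbol for 11161 tested genes. The E-box CACGTG, also the same on both strands, was in 8.55% of promoters of genes that rose, 9.08% of those of genes that fell and 9.55% of those tested. These matches are a description of the sequence windows, and binding was not measured.

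Of 31 genes known to be induced by neuronal activity, 5 rose and 2 fell (median 0.10). These shares, 16.1% and 6.45%, were close to the 16.1% and 10.1% of all genes. Npas4, an activity-dependent transcription factor, measured 14.5, 20.6 and 26.2 TPM at P7, against 2.93, 2.7 and 1.49 TPM at P3 (log2 fold change 2.66 ± 0.34, adjusted p = 0.000107). Egr3 measured 36.1, 22 and 35.6 TPM at P7, against 2.97, 4.09 and 6.29 TPM at P3 (log2 fold change 2.58 ± 0.25, adjusted p = 1.09e-05), and Egr4 rose as well (2.31 ± 0.29). All 3 factors were apart between the ages. Fos, by contrast, had a log2 fold change of 0.10 ± 0.35, Egr1 one of 0.38 ± 0.32 and Arc one of 0.62 ± 0.29, and none of these 3 genes was called. The falls were in Inhba, an activin subunit (-0.72 ± 0.16), and the nuclear receptor Nr4a3 (-0.92 ± 0.30), and the call of Nr4a3 was lost without P7 replicate 1 or 2 or P3 replicate 2 or 3.

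Transcription factors of neurons moved in both directions, with 21 of 77 higher, 13 lower and a median of -0.07. Rora, a nuclear receptor, measured 13.2, 11.4 and 13.7 TPM at P7, against 1.45, 2.05 and 2.84 TPM at P3 (log2 fold change 2.16 ± 0.30, adjusted p = 0.00022). Nr1d1, a nuclear receptor of the circadian clock, measured 45.6, 40.2 and 40.6 TPM at P7, against 13.3, 6.71 and 9.13 TPM at P3 (log2 fold change 2.05 ± 0.20, adjusted p = 1.1e-05). The thyroid hormone receptor Thrb (1.91 ± 0.41) and the imprinted factor Peg3 (1.58 ± 0.26) rose as well. Neurod6, a bHLH factor of young projection neurons, fell, at 93.6, 82.5 and 78.5 TPM at P7, against 407, 295 and 367 TPM at P3 (log2 fold change -2.05 ± 0.21, adjusted p = 1.61e-05). Pbx3 fell also (-1.82 ± 0.43). Neurod1, another bHLH factor of the same family, went the other way, at 86.7, 104 and 51.8 TPM at P7, against 31.9, 28.1 and 32.7 TPM at P3 (log2 fold change 1.3 ± 0.29, adjusted p = 0.00509). Of 21 long noncoding RNAs of neurons 10 rose and 3 fell (median 0.78), among them Snhg11, Malat1, and Meg3 and Mirg of the imprinted Dlk1-Dio3 region (1.85 ± 0.20 and 1.57 ± 0.26). Gas5, a snoRNA host gene, fell (log2 fold change -1.2 ± 0.16, adjusted p = 0.000191), and so did Pantr1, a noncoding neighbour of the POU factor gene Pou3f3 (log2 fold change -0.92 ± 0.15, adjusted p = 0.000536).

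Genes of the immature neuron fell more often than they rose. Of 35 genes 16 fell and 6 rose (median -0.25). Igfbpl1, an IGF-binding protein-like factor of newborn neurons, measured 2.28, 4.58 and 2.23 TPM at P7, against 64.4, 66.3 and 45.4 TPM at P3 (log2 fold change -3.92 ± 0.31, adjusted p = 2.23e-06). Sox11, an SRY-related factor of neuronal differentiation, measured 29.3, 26.9 and 29.1 TPM at P7, against 81.7, 69.3 and 91.4 TPM at P3 (log2 fold change -1.47 ± 0.15, adjusted p = 1.67e-05). Its close relative Sox4 measured 83.5, 89.1 and 80.7 TPM at P7, against 254, 221 and 206 TPM at P3 (log2 fold change -1.41 ± 0.12, adjusted p = 4.63e-06). All 3 genes were lower in every P7 library than in every P3 library. Dcx, doublecortin, the microtubule protein of migrating neurons, measured 77.5, 80.2 and 83.2 TPM at P7, against 95.9, 71.3 and 102 TPM at P3, with overlap and no call. The rises in this list were Neurod1, Tubb2a, Gap43, Crmp1 (0.66 ± 0.17), Mllt11 (0.58 ± 0.11) and Stmn2 (0.47 ± 0.11), of which several serve axon growth.

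Axon growth and pathfinding genes rose more often than they fell. Of 26 growth cone genes 10 rose and none fell (median 0.27), or 6 after median-ratio scaling. L1cam, an adhesion molecule of axons, rose (log2 fold change 1.21 ± 0.15, adjusted p = 9.99e-05), as did its relative Chl1 (1.17 ± 0.24). Of 55 axon guidance genes 23 rose and 4 fell (median 0.40). Efna5, a repulsive ephrin, measured 34.3, 24.1 and 35.2 TPM at P7, against 5.92, 2.9 and 6.89 TPM at P3 (log2 fold change 2.41 ± 0.29, adjusted p = 6.77e-05), and the Eph receptor Epha5 90.8, 97.6 and 87.3 TPM at P7, against 36.3, 29.3 and 38.8 TPM at P3 (log2 fold change 1.38 ± 0.15, adjusted p = 2.25e-05). The ages did not overlap in either. Nrp1, Draxin, Ephb1 and Efnb1 fell by 0.57 to 1.29 on the log2 scale, and none of the 4 fell without P7 replicate 1 or without P7 replicate 3. With 1 other library left out, 2 of them fell without P7 replicate 2 and 1 without P3 replicate 1 or 3. Of 28 cadherins and protocadherins 11 rose and none fell (median 0.48), led by Pcdh11x (2.25 ± 0.38) and Cdh9 (2.1 ± 0.37). Of 36 matrix genes 13 rose and none fell (median 0.51), among them Ccn3, Lingo2, an immunoglobulin-domain protein of neurons (3.47 ± 0.35), and Omg, a myelin-associated inhibitor of axon growth that neurons also make (1.74 ± 0.12).

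In the cytoskeleton, 21 of 38 neurofilament, microtubule and spectrin genes rose and none fell (median 0.52), and 1 fell without P7 replicate 2 or P3 replicate 1. Tuba4a, an alpha tubulin, measured 305, 239 and 287 TPM at P7, against 26.3, 31.9 and 29.7 TPM at P3 (log2 fold change 3.19 ± 0.18, adjusted p = 1.58e-07). Tuba1a, the main alpha tubulin of the young brain, measured 17263, 15803 and 15998 TPM at P7, against 20152, 16085 and 19690.1 TPM at P3, with overlap. Nefh, the heavy neurofilament subunit, was low at both ages and rose (1.64 ± 0.25). Of 39 actin regulators 8 rose and 5 fell (median 0.14), and 5 rose without P7 replicate 1 or 3 or P3 replicate 2. Their shares of 20.5% and 12.8% were near the 16.1% and 10.1% of all genes. The rises included Wasf1, a nucleator of branched actin, at 615, 624 and 638 TPM at P7, against 198, 139 and 199 TPM at P3 (log2 fold change 1.82 ± 0.16, adjusted p = 6.87e-06), and the falls Tmsb10 (-0.88 ± 0.19), the profilin Pfn1 (-0.79 ± 0.14) and Tmsb4x, whose call was lost after quantile normalization.

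Chromatin genes fell more often than they rose, with 12 of 56 lower and 3 higher (median -0.21). H2az1, the histone variant H2A.Z, measured 581, 728 and 651 TPM at P7, against 2049.5, 2119 and 1809.8 TPM at P3 (log2 fold change -1.61 ± 0.13, adjusted p = 2.28e-06). Ezh2, the methyltransferase of Polycomb complex 2, measured 13.8, 20.6 and 16.5 TPM at P7, against 46.1, 41.2 and 42.4 TPM at P3 (log2 fold change -1.32 ± 0.26, adjusted p = 0.00242). Dnmt3a, the DNA methyltransferase that is active in postnatal neurons, measured 28.3, 24.7 and 27.9 TPM at P7, against 14.9, 14.4 and 14.6 TPM at P3 (log2 fold change 0.84 ± 0.20, adjusted p = 0.00771). None of the 3 overlapped between the ages. Hdac9 (1.29 ± 0.24) and Hdac11 (0.78 ± 0.15), histone deacetylases, were the other rises. Of 41 RNA-binding and splicing genes 12 rose and 4 fell (median 0.13). Mbnl2, a splicing regulator of late development, rose (log2 fold change 1.21 ± 0.21, adjusted p = 0.00091), and Igf2bp3, an RNA-binding protein of fetal tissue, fell (log2 fold change -1.72 ± 0.34, adjusted p = 0.00238).

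Growth factors and morphogens showed a few large changes. Of 61 genes 13 rose and 5 fell (median 0.04), or 21.3% and 8.2%, against 16.1% and 10.1% of all genes. Fst, follistatin, which binds activins, measured 4.23, 4.29 and 1.93 TPM at P7, against 45.7, 26.1 and 29.2 TPM at P3 (log2 fold change -2.96 ± 0.35, adjusted p = 5.61e-05). Bmp2, a bone morphogenetic protein, measured 20.5, 21.6 and 22.1 TPM at P7, against 2.7, 4.2 and 2.29 TPM at P3 (log2 fold change 2.49 ± 0.23, adjusted p = 8.09e-06). Fgf10 rose also, at 11.5, 15 and 14.6 TPM at P7, against 0.56, 1.49 and 3.26 TPM at P3 (log2 fold change 2.52 ± 0.35, adjusted p = 0.000194). The ages were apart for all 3 genes. Igfbp2 (-1.84 ± 0.37), Igf1 (-1.83 ± 0.42) and Sfrp1 (-1.12 ± 0.27) fell, while Wnt4 (1.98 ± 0.31) and Igfbp5 (1.5 ± 0.20) rose. The part of other cell types in these changes was not tested. Other large falls among all genes were Cdkn1c, a cyclin-dependent kinase inhibitor that acts as neurons leave the cell cycle, at 6.77, 13.9 and 4.99 TPM at P7, against 70.1, 70.3 and 53.9 TPM at P3 (log2 fold change -2.88 ± 0.39, adjusted p = 0.000157), and Ly6g6e, at 2.22, 1.18 and 2.41 TPM at P7, against 28.7, 26.1 and 29.8 TPM at P3 (log2 fold change -3.34 ± 0.26, adjusted p = 2.04e-06). Trp53i11, a p53-induced gene, was lower in every P7 library too (log2 fold change -2.58 ± 0.20, adjusted p = 2.06e-06).

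Genes for the proteins of the cytoplasmic ribosome fell almost as a block. They were picked by name after the values were seen. Of 81 such genes 72 fell and 1 rose, with a median of -0.85, and with median-ratio scaling 71 fell and none rose. Their share of all TPM was 1.71%, 1.77% and 1.73% at P7, against 2.87%, 3.43% and 3.18% at P3. No P7 library reached the lowest P3 share. Rps6 of the small subunit measured 373, 384 and 363 TPM at P7, against 609, 650.0 and 648 TPM at P3 (log2 fold change -0.77 ± 0.13, adjusted p = 0.000735), and Rpl35 of the large subunit 276, 267 and 263 TPM at P7, against 466, 566 and 544 TPM at P3 (log2 fold change -0.96 ± 0.14, adjusted p = 0.000351). The gene that rose was Rps2 (0.92 ± 0.30), a call that held without P3 replicate 1 but not without any other layer 2 library, while its annotated pseudogene Rps2-ps13 fell, at 32.5, 34.3 and 32 TPM at P7, against 313, 395 and 519 TPM at P3 (-3.56 ± 0.34). Of 143 tested pseudogenes of this family 63 fell and none rose, and 40 fell without P3 replicate 2. Reads of these near-identical copies may have been split between gene and pseudogene, so the values of single copies are uncertain.

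Ribosomal protein transcripts are known to start within a run of pyrimidines through which their translation is controlled by growth signals. The sequences below show 30 bases around the annotated start of 4 such genes, from RefSeq on GRCm38.p6, 5′ to 3′ on the strand of the gene, with the run in capitals.
Rpl7a, chr2:26910792-26910821, plus strand: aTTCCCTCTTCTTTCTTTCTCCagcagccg
Rpl35, chr2:39005117-39005146, minus strand: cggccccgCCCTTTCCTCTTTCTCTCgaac
Rps6, chr4:86857353-86857382, minus strand: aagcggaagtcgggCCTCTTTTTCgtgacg
Fau, chr19:6057932-6057961, plus strand: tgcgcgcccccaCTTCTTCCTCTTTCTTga
A run of at least 8 letters, each C or T, within 5 bases of the start was found in 34.3% of 70 promoters of 59 ribosomal protein genes, in 9.9% of the promoters of tested genes and in 9.91% of those of genes that fell. Rpl7a measured 90.2, 89.5 and 75.1 TPM at P7, against 164, 169 and 153 TPM at P3 (-0.93 ± 0.14), and Fau, which makes a ribosomal protein fused to a ubiquitin-like one, 240.3, 220.2 and 228 TPM at P7, against 308, 412 and 354 TPM at P3 (-0.63 ± 0.15). In all 4 genes shown, every P7 library was below every P3 library.

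Energy metabolism moved unevenly. Of 39 glycolysis and energy genes 21 rose and 1 fell (median 0.42). Atp1b1, a beta subunit of the sodium pump, measured 1380.1, 1216 and 1446 TPM at P7, against 569.9, 407 and 558 TPM at P3 (log2 fold change 1.41 ± 0.14, adjusted p = 1.24e-05), with the ages apart. Pfkp, a phosphofructokinase (1.63 ± 0.27), and Ckmt1, a mitochondrial creatine kinase (1.59 ± 0.14), rose as well. The fall of the hexokinase Hk2 (-0.99 ± 0.34) was lost whichever of the 6 libraries was left out. Of 51 nuclear genes of the respiratory chain 13 fell and 1, Ndufs1, rose (median -0.26). The number that fell was 4 without P7 replicate 1, 5 without P7 replicate 2 and 5 without P7 replicate 3. It was 11 without P3 replicate 1, 2 without P3 replicate 2 and 4 without P3 replicate 3. After median-ratio scaling 5 fell, after quantile normalization 15, with the replicate block 10 and with the layer 2 libraries fitted alone 24. None of 13 mitochondrially encoded mRNAs was called (median -0.20).

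Cholesterol synthesis had few calls, with 2 of 31 genes higher and 2 lower (median 0.03). Of these calls, that of Fdps, farnesyl diphosphate synthase (log2 fold change -0.57 ± 0.11, adjusted p = 0.00171), held whichever library was left out, and those of Tm7sf2, Sqle and Insig1 did not. Of 28 autophagy, lysosome and proteostasis genes 8 rose and 4 fell (median 0.06). Atp6v1a, a subunit of the proton pump of lysosomes and synaptic vesicles, rose (log2 fold change 1.05 ± 0.12, adjusted p = 3.25e-05), with the autophagy receptor Sqstm1 (log2 fold change 0.72 ± 0.09, adjusted p = 0.000122). The cathepsins Ctsd (-1.38 ± 0.41), Ctsb (-0.95 ± 0.27) and Ctsl (-0.80 ± 0.24) fell, and all 3 lost their calls without P7 replicate 1 or without P3 replicate 2. Cathepsins are abundant in microglia, whose marker sum was lowest in P7 replicate 1 and highest in P3 replicate 2, and the part of microglia in these falls was not tested. Of 19 stress and RNA quality genes 3 rose and 3 fell (median -0.03), among them the metallothioneins Mt1 (-1.44 ± 0.33) and Mt2 (-1.89 ± 0.30), which fell, and Asns, asparagine synthetase (0.99 ± 0.14), which rose. Each direction held 15.8% of this list, where 16.1% of all genes rose and 10.1% fell.

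Several of the largest falls were in genes known from cells other than neurons. Spp1, osteopontin, a secreted protein made by microglia and other cells of the developing white matter, measured 40.5, 211 and 199 TPM at P7, against 1876, 3388 and 3404 TPM at P3 (log2 fold change -4.53 ± 0.66, adjusted p = 0.000274). Gpnmb, a membrane glycoprotein of phagocytic cells, measured 0.466, 3.89 and 3.36 TPM at P7, against 41.3, 33.4 and 24.5 TPM at P3 (log2 fold change -3.41 ± 0.62, adjusted p = 0.00132). The chemokine Ccl9 (-2.6 ± 0.62) and the leukocyte receptor Lilrb4a (-2.49 ± 0.51) fell too. P7 replicate 1 was the lowest library in Spp1 and Gpnmb, and the ages were apart in both. In the microglia list 3 of 15 genes fell, Tyrobp, Fcer1g and Aif1, with a median of -0.83. None fell without P7 replicate 1 or without P3 replicate 2, 1 fell without P7 replicate 3, 6 without P7 replicate 2 and 5 without P3 replicate 1. The homeostatic microglia genes Cx3cr1 (-0.73 ± 0.46) and P2ry12 (0.37 ± 0.56) were not called. The part of microglial RNA in the fall of Spp1, Gpnmb, Ccl9 and Lilrb4a was not tested.

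Genes of dividing cells and of ciliated cells were lower at P7. Of 22 cell cycle genes 17 fell and none rose (median -1.26), and 9 fell without P7 replicate 1 or P3 replicate 2. The 22 genes summed to 297, 473 and 377 TPM at P7, against 861, 1074 and 868 TPM at P3, apart between the ages. Cdc20, an activator of the anaphase-promoting complex, measured 14.6, 23.9 and 15 TPM at P7, against 55.3, 77.5 and 51.9 TPM at P3 (log2 fold change -1.75 ± 0.33, adjusted p = 0.00169). Of 9 choroid plexus and ependymal genes 8 fell and none rose (median -1.68), and 4 fell without P7 replicate 3 or P3 replicate 2. Foxj1, the master factor of motile cilia, measured 9.89, 12.8 and 6.86 TPM at P7, against 33.1, 85 and 31.9 TPM at P3 (log2 fold change -2.12 ± 0.39, adjusted p = 0.00143), and Pifo, a protein of the ciliary base, 7.36, 7.36 and 5.23 TPM at P7, against 29.1, 71.2 and 30.1 TPM at P3 (log2 fold change -2.43 ± 0.40, adjusted p = 0.000689). Both genes were highest in P3 replicate 2. Of 57 motile cilium genes, picked by name after the values were seen, 18 fell and 2 rose (median -0.66), and 11 fell without P3 replicate 2. The 12 choroid plexus and ependymal genes summed to 94.8, 127 and 49.3 TPM at P7, against 249.6, 592 and 314 TPM at P3, with Clic6 at 0 in all P7 libraries and Kl at 0 in all P3 libraries. The part of ependymal or choroid plexus RNA in the fall of cilium genes was not tested.

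The promoter of Pifo is shown because, in the ependymal list, it alone holds an X-box, the palindromic motif of the RFX factors that drive cilium genes.
Pifo, chr3:106001498-106001557, minus strand: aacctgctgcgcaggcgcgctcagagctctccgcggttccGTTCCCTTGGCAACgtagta
The motif, in capitals, begins 20 bases before the annotated start. It was in 0.402% of promoters of genes that rose, 0.454% of those of genes that fell, 0.543% of those tested and 0.451% of all promoters. The list had 6 matched genes with 7 promoters.

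Progenitor and glial markers gave a mixed picture. Of 12 radial glia and progenitor markers 3 fell and 1 rose (median -0.73). The 13 listed markers summed to 1218, 3249 and 1704 TPM at P7, against 5046, 7229 and 4484 TPM at P3, apart between the ages. Vim, vimentin, measured 20.1, 38.7 and 17.7 TPM at P7, against 81.2, 138 and 72.3 TPM at P3 (log2 fold change -1.91 ± 0.34, adjusted p = 0.00125), and Nes, nestin, 1.53, 1.94 and 1.57 TPM at P7, against 8.09, 9.57 and 6.33 TPM at P3 (log2 fold change -1.73 ± 0.28, adjusted p = 0.000545). Fabp7, which binds brain lipids in radial glia and young astrocytes, fell (log2 fold change -1.8 ± 0.47, adjusted p = 0.0124), a call that was lost without P7 replicate 1 or P3 replicate 2. On average Fabp7 made up most of the marker sum at P3, and 8 of the 12 tested markers were not called. Hopx rose (log2 fold change 1.0 ± 0.23, adjusted p = 0.00652). Of 15 astrocyte markers 1 rose, Gfap (1.86 ± 0.58), a call that was lost without P7 replicate 2 or 3 or P3 replicate 1 or 2. Of 15 oligodendrocyte lineage markers 1 rose, Mog (1.84 ± 0.62), and 1 fell, Olig1 (-1.85 ± 0.59). The call of Mog held only without P7 replicate 3, and that of Olig1 only without P7 replicate 2, when 2 markers of this list fell. None of 10 vascular and none of 5 erythroid genes was called, and 1 vascular marker rose without P3 replicate 3. Of 19 genes of adult layer 2/3 subtypes 6 rose and 1 fell (median 0.03), or 2 fell without P7 replicate 2 or 3. Cpne6, a calcium-dependent membrane-binding protein, measured 79.6, 70.4 and 79.9 TPM at P7, against 7.6, 15.7 and 8.91 TPM at P3 (log2 fold change 2.79 ± 0.23, adjusted p = 4.37e-06), and Nell1, a secreted factor, rose too (2.25 ± 0.29).

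**Figure D3:**
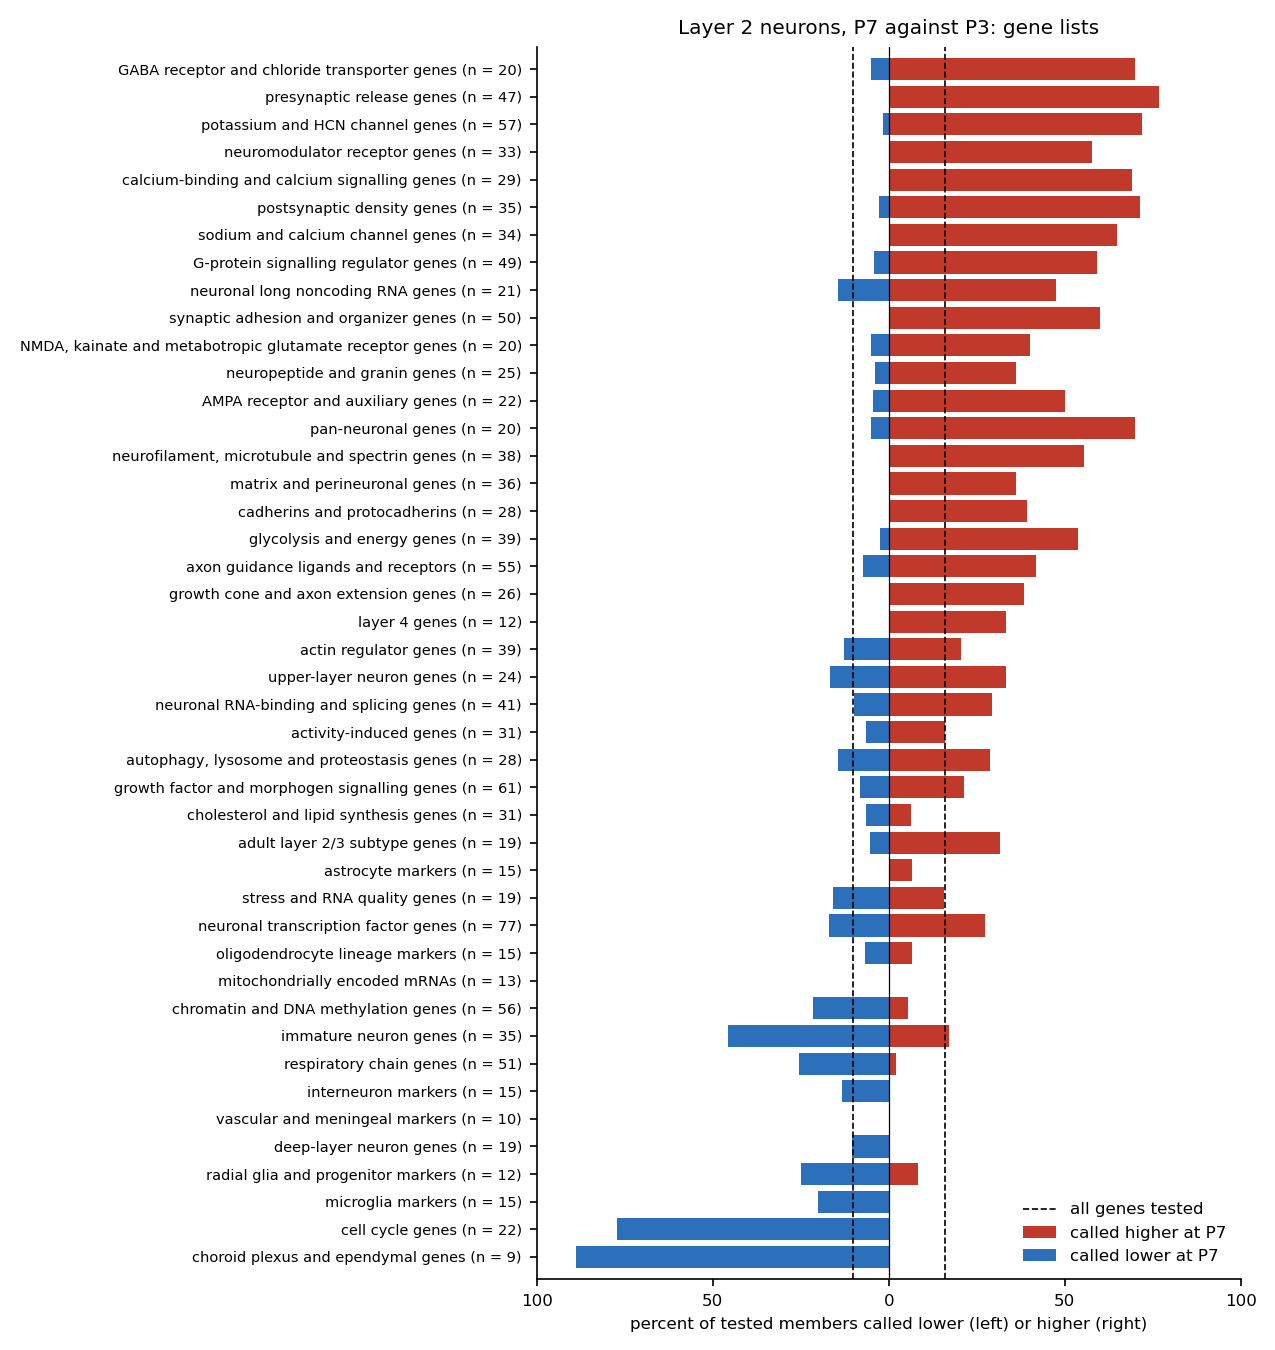
Percent of the tested members of 44 gene lists called higher at P7 (red, to the right) or lower at P7 (blue, to the left) in layer 2, with lists ordered by their median log2 fold change and n the members tested. The dashed lines mark the shares over all genes, 16.1% higher and 10.1% lower; presynaptic genes reach 76.6% higher, and ependymal genes 88.9% and cell cycle genes 77.3% lower.

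Ratios of related genes within a library do not depend on how that library was scaled. They can still depend on its mix of cell types, and the part of that mix was not tested. Of 28 pairs listed as a later and an earlier form, 27 had both genes at 1 TPM or more in all 6 layer 2 libraries. Among these, 14 ratios were higher in all 3 P7 libraries than in all 3 P3 libraries, 4 were lower and 9 overlapped. With 3 against 3 libraries the exact two-sided permutation test cannot give a p under 0.1, and each of the 18 separated pairs had p = 0.1. The ratio of the chloride exporter to the importer, Slc12a5 to Slc12a2, was 5.73, 3.76 and 7.49 at P7, against 0.533, 0.73 and 0.573 at P3. The ratio of the fast to the unconventional synaptotagmin, Syt1 to Syt4, was 0.822, 0.926 and 0.951 at P7, against 0.189, 0.186 and 0.175 at P3. The ratio of Camk2a to Camk2b was 0.102, 0.106 and 0.0877 at P7, against 0.0166, 0.0271 and 0.0206 at P3. In each case the ages were far apart. The vesicular transporter ratio Slc17a7 to Slc17a6 was 3.38, 2.34 and 2.86 at P7, against 0.938, 1.49 and 1.29 at P3. The Polycomb pair Ezh1 to Ezh2 had ratios of 1.81, 0.818 and 1.21 at P7, against 0.401, 0.272 and 0.458 at P3. The ratios that were lower at P7 included Dlg4 to Dlg3, Scn8a to Scn2a and Ldhb to Ldha, and the postsynaptic scaffold pair Dlg4 to Dlg3 had 0.492, 0.352 and 0.411 at P7, against 0.70, 0.727 and 0.748 at P3.

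**Figure D4:**
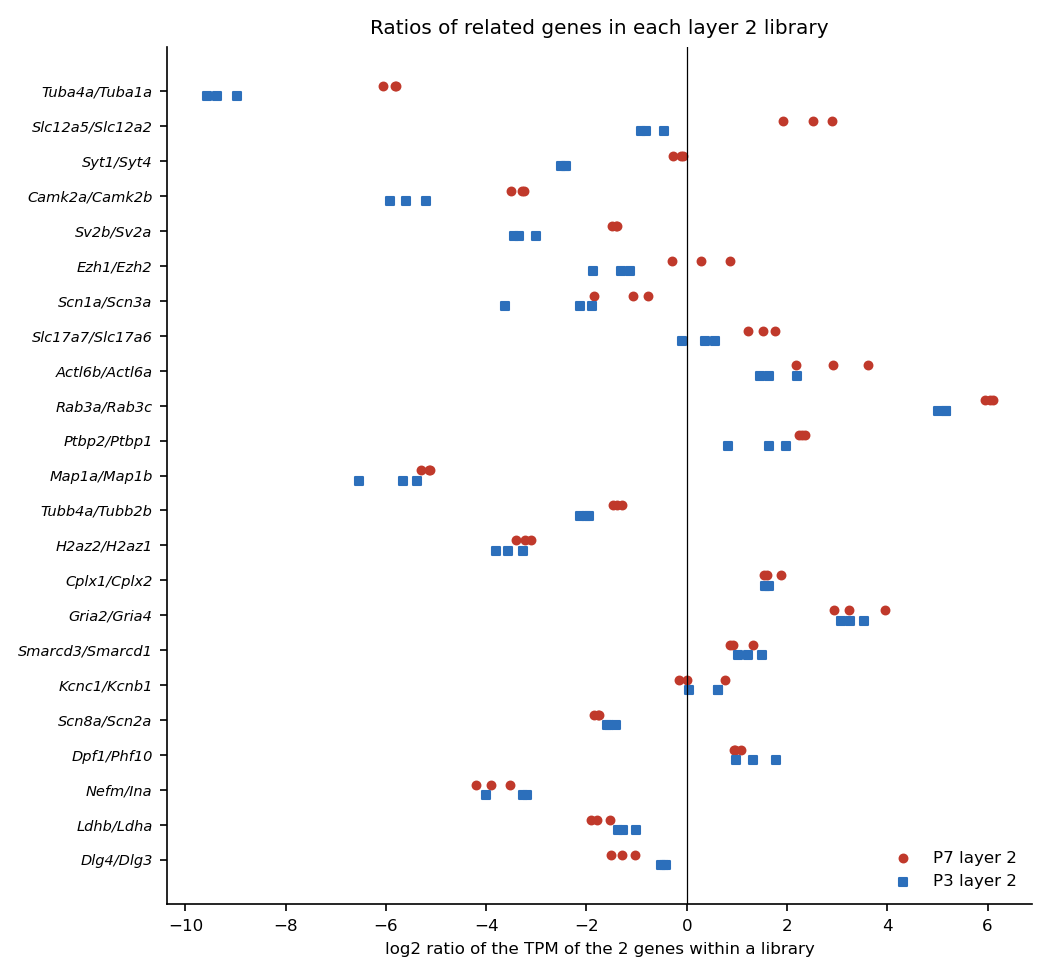
Log2 ratio of the TPM of 2 related genes (x axis) within each layer 2 library for 23 of the pairs, with P7 libraries as red circles above P3 libraries as blue squares, ordered by the change between the ages. The change is largest for Tuba4a over Tuba1a (3.42) and Slc12a5 over Slc12a2 (3.17), and lowest for Dlg4 over Dlg3 (-0.81).

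In the gene families given here, the sums and the shares of the members named next differed between the ages. Shares of other members overlapped, such as that of Gabra4 among GABA-A alpha subunits. In the neurofilament family, the share of Ina was 77.3 ± 2.27% at P7 and 77.9 ± 4.07% at P3. The vesicular glutamate transporters summed to 231 ± 39.8 TPM at P7 and 39.6 ± 9.56 TPM at P3 (SD, n = 3 each), and Slc17a7 held 73.5 ± 3.77% of the sum at P7 and 53.8 ± 5.55% at P3. The GABA-A alpha subunits summed to 353 ± 50.3 TPM at P7 and 121 ± 28.6 TPM at P3, and the share of Gabra2 was 8.62 ± 0.85% at P7 and 19.7 ± 3.42% at P3, without overlap. Of the AMPA receptor subunits, Gria2 held 66.2 ± 3.03% at P7 and 77.3 ± 2.20% at P3, and Gria1 16.9 ± 2.53% at P7 and 9.27 ± 1.16% at P3. Camk2a held 7.78 ± 0.51% of the CaM kinase II sum at P7 and 1.82 ± 0.38% at P3, so the beta subunit dominated at both ages. The calmodulin genes summed to 11980 ± 846 TPM at P7 and 6628 ± 641 TPM at P3, with Calm2 at 74.9 ± 0.33% at P7 and 72.8 ± 0.22% at P3. Exact tests of 3 against 3 libraries on these sums could not go below 0.1.

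Genes that rose were longer than those that fell. By the GENCODE vM21 annotation of GRCm38, matched by symbol for 95.1% of tested genes, the median span of protein-coding genes was 33.5 kb for genes that rose, 11.9 kb for genes that fell and 24.9 kb for all tested. Of protein-coding genes spanning at least 300 kb, 38.7% rose and 3.02% fell, and of those under 10 kb, 14.5% rose and 17.6% fell. Pseudogenes made up 1.63% of matched genes that rose, 15.6% of those that fell and 8.89% of all tested. These shares are descriptions, and a link between span, introns included, and the age change was not tested. The pseudogene shares also depend on how shared reads were counted.

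In layer 3, 3596 genes differed between P7 and P3 (21.8% of the same 16501), 2480 of them higher (15%) and 1116 lower (6.76%). Without P3 layer 3 replicate 1 the number was 2261. The layer 3 median over all genes was 0.17, and -0.00212 after median-ratio scaling, which moved the share of higher genes among those called in layer 3 to 49.3%, against 69% as deposited. In layer 2 this share was 56.7% after that scaling, against 61.4% as deposited. Of the genes that rose in layer 2, 59.6% also rose in layer 3, and these were 63.9% of those that rose in layer 3. Of the genes that fell in layer 2, 42.3% also fell in layer 3, which were 63.2% of the falls in layer 3. Slc17a7 had a log2 fold change of 2.95 ± 0.17 in layer 2 and 3.22 in layer 3, and Spp1 -4.53 ± 0.66 in layer 2 and -0.12 in layer 3, where Spp1 was not called. The layer difference of Spp1 itself was -4.4 ± 0.93 (adjusted p = 0.0775).

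The age change itself differed between the layers in 34 genes (0.206%), with 22 more positive in layer 2 (0.133%) and 12 more negative (0.0727%). The number depended on single libraries. It was 10 to 15 without any 1 of the 6 P7 libraries or P3 replicate 3 of either layer. Leaving out P3 layer 3 replicate 1 gave 21 genes, and leaving out replicate 2 of that group gave 115, of which 45 were more positive in layer 2 and 70 more negative. Vsnl1 rose more in layer 2 (difference 2.13 ± 0.22, adjusted p = 0.00132). In layer 3 it measured 626, 769.8 and 848 TPM at P7, against 372, 376 and 401 TPM at P3. Bcl6, a repressor that promotes neuronal differentiation, measured 24.8, 22.4 and 23.8 TPM at P7, against 13.4, 12.5 and 8.01 TPM at P3 in layer 2 and 16.7, 11.6 and 10.7 TPM at P7, against 33.8, 39.6 and 27.8 TPM at P3 in layer 3 (difference 2.35 ± 0.32, adjusted p = 0.0109). The change was thus upward in layer 2 and downward in layer 3. Nr1d1 (difference 2.11 ± 0.28, adjusted p = 0.0109) and Bmp2 (difference 2.07 ± 0.33, adjusted p = 0.0258) also rose more in layer 2, and of these the call of Bmp2 was lost without any 1 of the 6 P7 libraries or P3 layer 2 replicate 3. Nefl, the light neurofilament subunit, measured 34, 24.2 and 24.1 TPM at P7, against 21.9, 18.1 and 15.1 TPM at P3 in layer 2 and 129, 149 and 218 TPM at P7, against 10.5, 22.5 and 12.4 TPM at P3 in layer 3 (difference -2.85 ± 0.38, adjusted p = 0.0109). Its level at P7 was higher in every layer 3 library than in any layer 2 library. Lists with a call in this test were neuronal transcription factors with 5 genes and the upper-layer, presynaptic, calcium signalling, cytoskeletal and growth factor lists with 1 gene each.

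**Figure D5:**
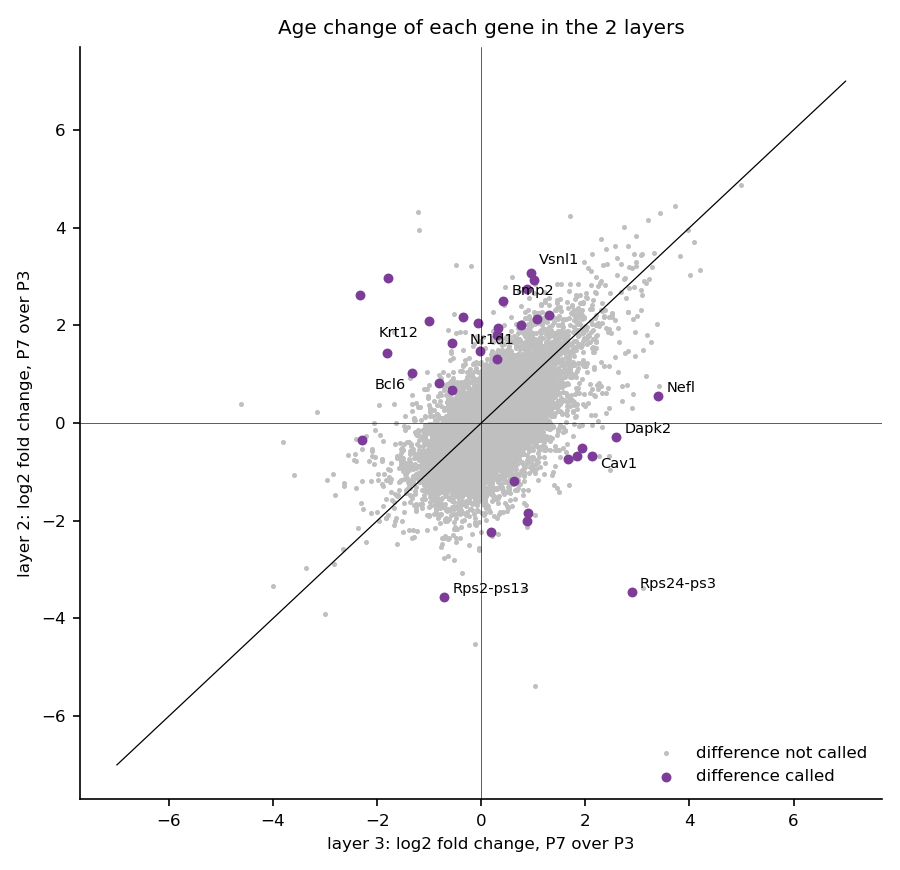
The log2 fold change, P7 over P3, of each tested gene in layer 2 (y axis) and in layer 3 (x axis), with the line of equal change; purple points are the 34 genes whose age change differed between the layers. Vsnl1, Nr1d1, Bmp2, Krt12 and Bcl6 lie above the line, and Nefl, Dapk2 and Cav1 below it.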

How the data were processed

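RNA of sorted layer 2 and layer 3 neurons at P7 and P3 was measured in 3 libraries per group, 12 in all. RNA was purified with RNeasy columns and made into libraries by a SMART-Seq mRNA LP kit according to the labels' protocols. Reads were handled with HISAT2, StringTie and featureCounts on GRCm39, per the submitters' processing notes, with versions not given in the sources used here. The authors deposited 1 table of TPM values, which sum to 1000000 in each column. TPM keeps no read depth, so the depth and the counting error of each value are unknown, and a gene near 1 TPM is less certain than an abundant one. Whether strand was used in the counting is not stated.

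The values were taken as log2(TPM + 1), and fold changes on this scale understate the change of low genes. Genes with at least 1 TPM in at least 3 of the 6 layer 2 libraries were tested with limma 3.58.1 in R 4.3.3, using limma-trend with 4 group means over all 12 libraries (8 residual degrees of freedom), Benjamini-Hochberg adjustment over all tested genes and a threshold of 0.05. The difference of the age changes between layers came from the same fit. All adjusted p-values in the text are from limma. Libraries are pools of pups, and p-values measure the spread between such pools.

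The 46 gene lists, the gene pairs and the members of the comparison were chosen with earlier results of these data known. Lists are described by counts and medians. These are to be read against all tested genes, of which 16.1% rose and 10.1% fell, with a median of 0.03. Named genes are those with the largest changes and, in each direction, the most abundant ones (ranges apart, at least 5 TPM in the higher group, no predicted names), up to 5 per list and direction, both genes of each pair, and genes whose age change differed between layers. Ribosomal protein and cilium genes were grouped by name after their values were seen, and Arc, Egr1, Fos, Map2, Tubb3, P2ry12, Stmn2 and the named ribosomal protein genes were also picked then. Promoters and annotation came from RefSeq and GENCODE vM21 tables of GRCm38, matched by symbol, since the deposited table gives no coordinates. Alternatives were other pseudocounts, filters, scalings, moderation, array weights, a replicate block and leaving out each library. Some genes are not reported here.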

Additional observations from a re-analysis of the deposited data

Results flagged for a closer look

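The age change differed between layer 2 and layer 3 in the following genes, by the difference of the changes in limma, over layers that share no library. Krt12, an epithelial keratin, had a difference of 3.10 (adjusted p = 0.0426), with 2.10 in layer 2 and -1.01 in layer 3. Bcl6 had a difference of 2.35 (adjusted p = 0.0109), with 1.03 in layer 2 and -1.32 in layer 3. Vsnl1 had 2.13 (adjusted p = 0.00132), Nr1d1 2.11 (adjusted p = 0.0109) and Bmp2 2.07 (adjusted p = 0.0258). In the other direction, Nefl had a difference of -2.85 (adjusted p = 0.0109), with 0.552 in layer 2 and 3.40 in layer 3. Dapk2, a calcium-dependent death-associated kinase, had -2.88 (adjusted p = 0.0371), and Cav1, a caveolin, -2.80 (adjusted p = 0.0371). The pseudogenes Rps24-ps3 (-6.35, adjusted p = 0.0139) and Rps2-ps13 (-2.85, adjusted p = 0.0371) may share reads with expressed genes, and their values are uncertain. The calls of Bcl6, Vsnl1 and Nr1d1 held in all 23 alternatives run, with Vsnl1 between 1.85 and 2.27, and that of Nefl in all but the one without the 3 libraries that stood apart (adjusted p = 0.0591). When 1 library was left out, the calls of Krt12, Dapk2 and Cav1 were lost in 10 of 12 cases each, that of Rps2-ps13 in 9, that of Bmp2 in 7 and that of Rps24-ps3 in 2.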

How the results depend on the processing

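No named gene called in layer 2 changed its direction in the alternatives run, but the balance of some counts did. In layer 3, 1685 genes were called higher and 1736 lower after median-ratio scaling, and 1665 higher and 1700 lower after quantile normalization, against 2480 higher and 1116 lower as deposited. Of the genes whose age change differed between the layers, 418 were more positive and 616 more negative in layer 2 with array weights, and 45 and 70 without P3 layer 3 replicate 2, against 22 and 12 with all libraries unweighted. The layer 2 median over all genes was -0.0182 after median-ratio scaling, -0.0196 after quantile normalization and -0.00477 with no filter, against 0.0346. Some medians of lists near 0, and fold changes of named genes that were not called, also changed sign. The number of genes that differed between P7 and P3 in layer 2 was 6495 with array weights, whose estimation stopped before its tolerance was met, and 1920 when a log2 fold change of at least 1 was required. With 1 library left out it was 2868 to 3860, the lowest without P3 layer 2 replicate 2. In layer 3 it was 7178 with array weights, and 2261 to 5173 with 1 library left out. The difference between the layers was called in 21 genes with a pseudocount of 0.1, 16 with no filter, 22 with a filter at 5 TPM, 1034 with array weights and 10 to 115 with 1 library left out. Without the 3 libraries that stood apart (P3 layer 2 replicate 2, P3 layer 3 replicate 1 and P7 layer 3 replicate 1), which were chosen after seeing the data, it was 12, and the layer 2 count was 3695. Quantile normalization gave 53% higher among the genes called in layer 2 and 49.5% in layer 3.

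Same-numbered P7 and P3 libraries of layer 2 deviated together with correlations of 0.185, 0.235 and 0.046. Each P7 library, and P3 replicates 1 and 2, correlated best with the same number at the other age. P3 replicate 3 correlated best with P7 replicate 1. The numbers were not taken as pairs in the main fit. With the replicate block 4153 genes differed in layer 2, 3282 in layer 3 and 31 between the layers. Of 278 named genes called in layer 2, 220 kept the call whichever layer 2 library was left out and 58 lost it without at least 1. Of 781 list medians recomputed, 91 moved beyond the spread between libraries. Low genes are limited by the unknown depth.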
